A study of Drosophila melanogaster with 18 samples.

Results

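The brains of virgin Oregon wild-type Drosophila melanogaster males were compared between 3 and 7 days after eclosion, the emergence of the adult fly from the pupa (M3v7). The libraries were chosen by their labels alone, the 3 libraries of 7-day males against the 3 libraries of 3-day males, which are 6 of the 16 libraries with values and 6 of the 18 samples that the labels describe. The study asked how gene expression changes with age in the brains of young adults of each sex, and its other libraries are of females at 3 and 7 days, used here for 1 comparison between the sexes, and of 14-day males, given side by side. All flies were virgins of 1 wild-type strain kept on cornmeal agar with a daily light and dark cycle and received no treatment, and each library was made from a pool of 100 dissected brains, so a library is the mean of many animals of 1 sex and age. The 5 female libraries of these ages are 3 at 3 days and 2 at 7 days.

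The first days after eclosion are a time of maturation for a male fly. The fly brain lies between the compound eyes and the oesophagus passes through it, and the optic lobes of the brain join the retina, whose photoreceptors hold opsins, the light-sensing proteins, and a signalling cascade that turns light into a current through TRP channels. Genes of tissues beside the brain, such as the retina, may therefore be read in a dissected brain with those of neurons and glia. How much of such tissue each pool held was not tested.

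The deposited values are normalized read counts, whole reads divided by 1 size factor per library. The reads behind them came to 3240636, 7025263 and 8664494 in replicates 1, 2 and 3 of the 3-day males and to 5939046, 7289072 and 6692616 in those of the 7-day males. Spearman's correlation over the 12448 tested genes between any 2 of the 6 libraries was 0.926 to 0.967. The pairs of the same age lay inside the range of the pairs of different ages. The chosen markers of neurons and of glia were all detected in these libraries, 5 of 5 and 7 of 7, as the label of brain requires. The sum of the 5 neuronal markers was 59649 to 67857 at 3 days and 46682 to 53266 at 7 days.

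**Figure D1:**
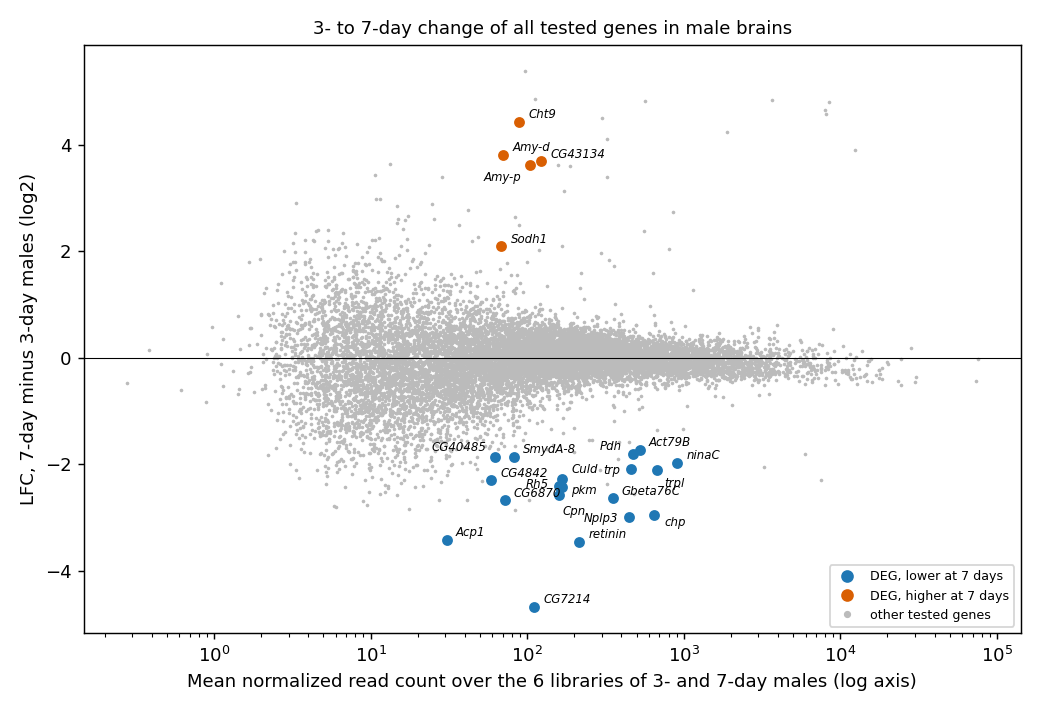
Log2 fold change from 3 to 7 days (LFC, 7-day minus 3-day males) of each of the 12448 tested genes against its mean normalized read count over the 6 libraries, on a log axis. The 24 DEGs are coloured and named, and the 19 that were lower at 7 days lie between −4.67 and −1.73.

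Few genes differed between the ages. Of the 12448 genes tested, 24 were differentially expressed genes (DEGs) at an adjusted p below 0.1 in limma (0.193%), of which 19 were lower (0.153%) and 5 higher (0.0402%) at 7 days. At an unadjusted p below 0.05 there were 373 genes (3%), 194 lower (1.56%) and 179 higher (1.44%). The values of the 3 libraries of each age did not overlap for 767 genes that were lower (6.16%) and 651 that were higher (5.23%) at 7 days. The median LFC over all genes was −0.03, so a list's median is read beside a value near 0.

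The number of DEGs fell when any library but replicate 2 of the 7-day males was left out. Without replicate 1, 2 or 3 of the 3-day males, 1, 1 and 9 genes were lower and 0, 0 and 1 were higher. Without replicate 1 or 3 of the 7-day males, 5 genes were lower and 0 higher each time, and without replicate 2 of the 7-day males 20 were lower and 7 higher. By limma at an unadjusted p below 0.05, 94 genes were lower and 174 higher without replicate 1 of the 3-day males, and 142 and 159 without replicate 2 of that age. These counts were 100 and 154 without 7-day replicate 1, and 478 and 137 without 7-day replicate 3. All 24 DEGs kept their sign under all 18 alternatives. The ages did not overlap in any of the 24, so leaving out 1 library could not turn a sign. Nplp3 was the 1 DEG that passed the adjusted threshold without each library in turn.

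The genes of the retina were the largest group among those that were lower at 7 days. Rh5 encodes an opsin of blue-sensitive photoreceptors of the compound eye, and its normalized read counts were 339, 335 and 132 in replicates 1, 2 and 3 of the 3-day males and 24.5, 84.8 and 44.9 in those of the 7-day males. The ages did not overlap, and the 3-day mean was 5.23 times the 7-day mean (LFC −2.42 ± 0.47 SE, adjusted p = 0.0676). The call for Rh5 was lost without 4 of the 6 libraries, where the adjusted p reached 0.533.

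The other opsins of the compound eye had LFCs of like size. ninaE, the opsin of the outer photoreceptors and the most abundant opsin per kb of exon at both ages, read 15141, 11793 and 8592 at 3 days and 999, 6289.7 and 2068 at 7 days (LFC −2.29 ± 0.59, adjusted p = 0.339). Rh3 and Rh4, the ultraviolet opsins of the inner photoreceptors, had LFCs of −2.37 ± 0.63 and −2.56 ± 0.58 (unadjusted p = 0.00136 and 0.000318). Rh6, the green opsin of inner photoreceptors, had an LFC of −1.89 ± 0.46 (unadjusted p = 0.000656). In each of these 4 genes every 7-day library was below every 3-day library.

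The last opsins stood closer to 0. Rh7, which is known from brain clock neurons as well as the eye, read 509, 578 and 415 at 3 days and 279, 254 and 414 at 7 days (LFC −0.68 ± 0.30, unadjusted p = 0.0368). Rh2, the opsin of the ocelli, the simple eyes on top of the head, overlapped between the ages with 2409.6, 2999 and 1047 at 3 days and 2187, 1207 and 1589 at 7 days (LFC −0.28 ± 0.50, unadjusted p = 0.579), and without replicate 2 of the 3-day males its LFC was 0.02. Of the 7 opsins, 1 was a DEG and 6 had an unadjusted p below 0.05, all lower at 7 days, against 0.153% and 1.56% over all genes. The list's median LFC was −2.29. edgeR called 1 of the 7 and DESeq2 called 3. In pools of brains, fewer cells of a type and less RNA per cell cannot be told apart.

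**Figure D2:**
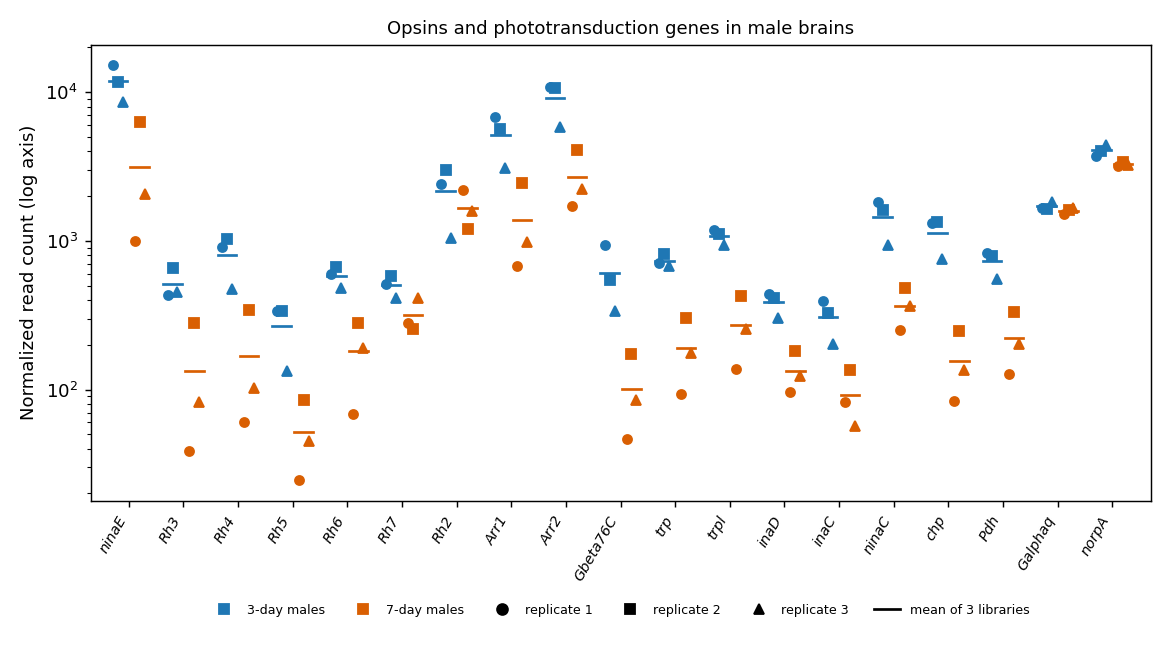
Normalized read counts on a log axis of the 7 opsins and 12 genes of phototransduction and of photoreceptors in each library of 3-day (blue) and 7-day (orange) males, with replicates as shapes and group means as bars. The opsins of the compound eye, arrestins and channels are apart between the ages while Rh2 and Galphaq overlap, and 7-day replicate 2 (square) is the highest of its age in most of the genes that fell.

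Genes of the signalling cascade below the opsins were also among the DEGs. Of 28 phototransduction genes tested, 6 were DEGs and 14 had an unadjusted p below 0.05, all lower at 7 days. These shares compare with 0.153% and 1.56% over all genes. In 28 of 28 the LFC was below 0, and the median was −1.13, or −1.52 without replicate 3 of the 3-day males. edgeR called 1 of the 28 and DESeq2 called 9, all lower. By role, the DEGs were Gbeta76C, the beta subunit of the eye's G protein (LFC −2.64 ± 0.53), the light-gated channels trpl (−2.12 ± 0.39) and trp (−2.09 ± 0.44), the unconventional myosin and kinase ninaC (−1.98 ± 0.39), the photoreceptor cell adhesion protein chaoptin, chp (−2.95 ± 0.44), and Pdh, a retinol dehydrogenase of pigment cells (−1.80 ± 0.37). Their adjusted p ran from 0.0133 for chp to 0.0974 for trp.

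chp had the smallest p of this list, with 1328, 1328 and 752 at 3 days and 84.0, 247 and 136 at 7 days. It was lost without replicate 1 or 2 of the 3-day males, with an adjusted p of at most 0.13. trpl read 1183, 1106 and 938 at 3 days against 137, 423 and 256 at 7 days, and trp 709, 818 and 674 against 93.4, 302 and 176. Both channels stayed below their lowest 3-day value in every 7-day library. Both, with Pdh, were DEGs without 7-day replicate 2 alone among the 6 fits that left out a library, and their adjusted p in the others reached 0.499 for trpl, 0.795 for trp and 0.619 for Pdh. ninaC and Gbeta76C were DEGs in 2 of these 6 fits, without 3-day replicate 3 and without 7-day replicate 2, and their adjusted p reached 0.594 in the others.

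The arrestins, which shut off active rhodopsin, were among the most abundant of these genes. Arr2 read 10916, 10712 and 5847 at 3 days and 1704, 4086 and 2242 at 7 days (LFC −1.82 ± 0.47, unadjusted p = 0.0012), and Arr1 had an LFC of −2.05 ± 0.51 (unadjusted p = 0.00088). The scaffold inaD and the protein kinase C inaC of the signalling complex had LFCs of −1.55 ± 0.38 and −1.77 ± 0.59, and the opsin chaperone ninaA one of −1.64 ± 0.51. None of these 5 passed the adjusted threshold in limma (adjusted p 0.252 for inaD to 1.00 for inaC) or in edgeR, and DESeq2 called Arr1, Arr2 and inaD (adjusted p = 0.0557, 0.0212 and 0.0742). In none of the 5 did the ages overlap.

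In 10 of the 28 genes the LFC lay within 0.35 of 0. They included Galphaq, the G protein alpha subunit that also serves other neurons (1659, 1637 and 1819.9 at 3 days, 1527, 1612 and 1658 at 7 days, LFC −0.09 ± 0.36), and norpA, the phospholipase C of the cascade, which also works in the brain (LFC −0.30 ± 0.36, unadjusted p = 0.408). Neither passed a threshold. Within this list, which also holds genes outside the cascade such as chp and Pdh, the LFCs thus ranged from −2.95 to −0.004.

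Further genes of the eye were DEGs. retinin, a protein of the corneal lens, read 366, 489 and 310.3 at 3 days and 15.1, 75.5 and 33.6 at 7 days (LFC −3.45 ± 0.52, adjusted p = 0.0133). Cpn encodes calphotin, a calcium-binding protein of photoreceptors (LFC −2.58 ± 0.55, adjusted p = 0.0996), and Culd encodes a membrane protein that works in the turnover of rhodopsin (LFC −2.27 ± 0.45, adjusted p = 0.0722). retinin was lost without replicate 1 or 2 of the 3-day males, where its adjusted p was at most 0.13. Culd kept its call only without 3-day replicate 3 or 7-day replicate 2 and Cpn only without 7-day replicate 2, and the highest adjusted p in the other fits was 0.533 and 0.773. t (tan), which frees histamine, the photoreceptors' transmitter, from carcinine, had an LFC of −1.92 ± 0.45 (adjusted p = 0.185 in limma, 0.242 in edgeR and 0.0395 in DESeq2), with 155, 147 and 93.9 at 3 days and 16.0, 42.4 and 53.1 at 7 days.

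The genes of the screening pigments of the eye did not share this. Of 17 tested, 0 were DEGs in limma, edgeR or DESeq2. At an unadjusted p below 0.05, 1 was lower, against 1.56% over all genes. The ages did not overlap in 2, both higher at 7 days, against 5.23% over all genes, and the median LFC was −0.10. The 1 gene was se, an enzyme of the red pigment pathway (LFC −1.24 ± 0.50, unadjusted p = 0.0233), whose values overlapped.

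The libraries of 1 age also differed in these genes, and in a common order. Of the 14 phototransduction genes lower at an unadjusted p below 0.05, 14 had their highest 7-day value in replicate 2 and 12 their lowest in replicate 1, and 14 had their lowest 3-day value in replicate 3. The sum of the 8 photoreceptor markers was 30865, 27613 and 17593 at 3 days and 3240, 12145 and 5273.6 at 7 days, none of them at 0, and the sums did not overlap although the 7-day libraries also differed widely from each other. All 8 were lower at an unadjusted p below 0.05, but they are opsins and phototransduction genes already described above and not a separate set. How much retina each pool held was not tested.

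Nplp3 had the smallest p of all genes. It encodes a neuropeptide-like precursor, and its normalized read counts were 900.3, 891 and 580.5 at 3 days and 64.2, 115 and 124 at 7 days, 7.82 times more at 3 days (LFC −2.98 ± 0.39, adjusted p = 0.006). Without each of the 6 libraries its LFC lay between −3.19 and −2.69 with an adjusted p of at most 0.0978. Of the 39 neuropeptide precursors tested, it was the only DEG and the only one with an unadjusted p below 0.05. Of the 39, 14 had an LFC below 0 and 25 one above 0, and the median was 0.15, or −0.09 without replicate 1 of the 3-day males. Ilp2, an insulin-like peptide of the brain, read 2561, 3398 and 3338 at 3 days and 5890.1, 5007 and 3557 at 7 days (LFC 0.62 ± 0.50, unadjusted p = 0.231).

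The genes with large decreases were in part neighbours on the chromosome (release 6 of the genome). On 3L, Nplp3 (16318024 to 16318690), retinin (16331933 to 16332789), Pdh (16353233 to 16354297) and CG4842 (16368389 to 16369518) lay within 51.5 kb. Of the 20 tested genes inside this stretch, 4 were DEGs, 5 had an unadjusted p below 0.05, and the median LFC of the other 15 was 0.03. The fifth, Tcs3, overlaps Pdh by 54 bases, and since the library kit does not mark strand the reads of that overlap cannot be told apart (Tcs3 LFC −1.13 ± 0.33). CG4842 itself read 110, 86.3 and 97.7 at 3 days and 30.2, 18.7 and 12.0 at 7 days (LFC −2.30 ± 0.40, adjusted p = 0.0355), and it was lost without any of the 3-day libraries or 7-day replicate 3, with an adjusted p of up to 0.22. The stretch was picked after the values were seen and has no test.

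A second group of neighbours on 2L held the steepest decrease. CG7214 (7743682 to 7744839) read 288, 227 and 128 at 3 days and 5.66, 3.59 and 15.7 at 7 days, 25.7 times more at 3 days (LFC −4.67 ± 0.73, adjusted p = 0.015). Acp1 (7740562 to 7741537), a protein of the adult cuticle, read 83.2, 60.8 and 28.1 against 5.66, 3.59 and 2.99 (LFC −3.43 ± 0.71, adjusted p = 0.0906). CG7203 (7752170 to 7753186) had an LFC of −2.85 ± 0.63 and an adjusted p of 0.119 in limma, 0.0703 in edgeR and 0.000107 in DESeq2. These 3 are the tested genes that lie within the 12.6 kb, and in all of them the ages were far apart. This stretch too was picked after the values were seen. CG7214 was lost without replicate 1 or 2 of the 3-day males (adjusted p up to 0.13), and Acp1 without each library (adjusted p 0.144 to 0.678).

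Of 86 cuticle proteins tested, Acp1 was the 1 DEG, against 0.153% lower over all genes. At an unadjusted p below 0.05, 6 were lower and 2 higher, against 1.56% and 1.44% over all genes, and the 2 are close to that share. The median LFC was −0.32, or 0.07 without replicate 1 of the 7-day males. Cpr49Ag read 18.3, 24.6 and 7.66 at 3 days and 0, 1.44 and 4.49 at 7 days (LFC −2.78 ± 0.75, adjusted p = 0.416). Acp1 was also called by DESeq2 and not by edgeR.

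Muscle genes were lower in part. Act79B, an actin of adult muscle, read 592, 1017 and 810.3 at 3 days and 202, 265 and 247 at 7 days (LFC −1.73 ± 0.36, adjusted p = 0.0955), and it was lost without each of the 6 libraries in turn (adjusted p 0.172 to 0.598). Act88F, the actin of the indirect flight muscles, had an LFC of −2.66 ± 0.57 with an adjusted p of 0.104 in limma, 0.0852 in edgeR and 0.000789 in DESeq2. Of 29 muscle genes, 1 was a DEG and 7 had an unadjusted p below 0.05, all lower, against 0.153% and 1.56% over all genes. In 26 the LFC was below 0, and the median was −0.41, or −0.18 without replicate 1 of the 7-day males. Prm (paramyosin) did not overlap between the ages, with 464, 757 and 439 at 3 days and 176, 324 and 333 at 7 days (unadjusted p = 0.0114). The troponin C gene TpnC41C did not overlap either (LFC −1.66 ± 0.63), while Mlc1, Mlc2 and Mhc, the myosin chains, did (−0.90, −0.88 and −0.72). The sum of the 6 muscle markers was 3409.7, 6609 and 3947 at 3 days and 2007, 3990.2 and 2612 at 7 days, none at 0, so it overlapped between the ages and was highest in replicate 2 of both. The amount of muscle in the pools was not tested.

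The 2 neighbouring collagen IV genes of basement membranes, made by hemocytes and fat body, had LFCs below 0 that did not pass the adjusted threshold in limma or edgeR. Col4a1 read 1636, 1499 and 1127 at 3 days and 584, 525 and 546 at 7 days (LFC −1.35 ± 0.31, adjusted p = 0.174 in limma, 0.149 in edgeR and 0.0256 in DESeq2), and vkg had an LFC of −0.77 ± 0.35 (unadjusted p = 0.0405). Of 13 hemocyte genes tested, these and NimB4 had an unadjusted p below 0.05, all lower, against 1.56% over all genes. The 4 hemocyte markers summed to 1445 to 2153 at 3 days and 1293 to 1648 at 7 days, none at 0.

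The remaining DEGs that were lower are less studied. pkm read 286, 271 and 276 at 3 days and 27.4, 72.6 and 65.8 at 7 days, 5.03 times more at 3 days (LFC −2.43 ± 0.41, adjusted p = 0.026), with little spread within the younger age. CG6870 had an LFC of −2.68 ± 0.49 (adjusted p = 0.0539) and CG40485 one of −1.86 ± 0.38 (adjusted p = 0.0870). SmydA-8, of a family of methyltransferase-like proteins, had an LFC of −1.86 ± 0.40 (adjusted p = 0.099). The calls for pkm and CG6870 were each kept in 2 of the 6 fits without a library (highest adjusted p 0.194 and 0.421), and those for CG40485 and SmydA-8 in none of them (adjusted p 0.222 to 0.664 and 0.194 to 0.751).

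**Figure D3:**
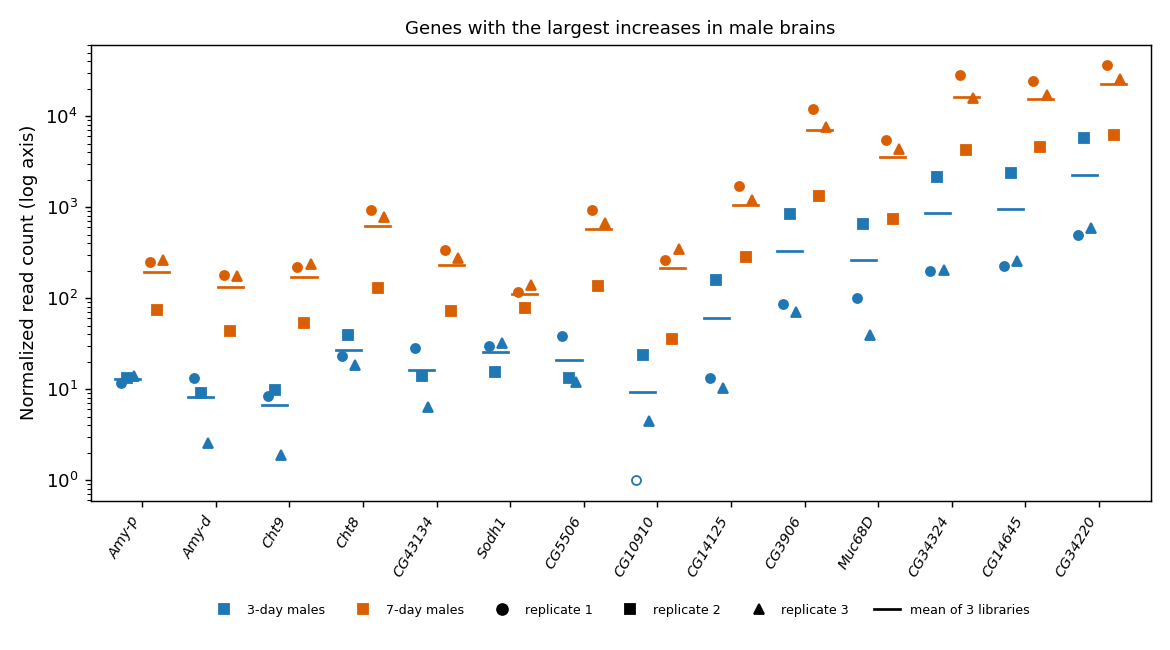
Normalized read counts on a log axis of 14 genes with large increases in each library of 3-day (blue) and 7-day (orange) males, with replicates as shapes and group means as bars. An open circle stands for a value of 0 drawn at 1. Replicate 2 of the 7-day males (orange square) is the lowest of its age in all 14.

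The 5 genes that rose were Amy-p, Amy-d, Cht9, CG43134 and Sodh1. Amy-p and Amy-d encode alpha-amylases that split starch. Amy-p read 11.6, 13.1 and 14.0 at 3 days and 248, 74.0 and 264 at 7 days, 15.1 times more at 7 days (LFC 3.62 ± 0.57, adjusted p = 0.0159), and Amy-d rose from a mean of 8.30 ± 5.42 (SD, n = 3) to 133 ± 77.5 (SD, n = 3). The 2 genes are near-identical copies on 2R, and how the authors treated reads that match both is not given in the sources used here, so the split between them is uncertain. Every 7-day library was above every 3-day library, and replicate 2 was the lowest at 7 days. Amy-p was kept as a DEG without 3-day replicate 3 or 7-day replicate 2 (adjusted p up to 0.154 otherwise) and Amy-d without 7-day replicate 2 alone (up to 0.499).

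Cht9, a chitinase, read 8.32, 9.86 and 1.92 at 3 days and 222, 53.9 and 240.0 at 7 days (LFC 4.43 ± 0.86, adjusted p = 0.0676). It lies on 2R beside 3 more chitinase genes, Cht8, Cht12 and Cht4, within 7.6 kb, a stretch picked after the values were seen. Of these 4 genes, 4 were higher at an unadjusted p below 0.05, against 1.44% over all genes. The LFCs were 4.10 for Cht8, 2.50 for Cht12 and 1.78 for Cht4. Cht12 overlapped between the ages, with 36.6, 24.6 and 8.94 at 3 days and 227, 35.9 and 203 at 7 days. CG43134 rose from 28.3, 14.0 and 6.39 to 340, 71.9 and 277 (LFC 3.69 ± 0.69, adjusted p = 0.0539), and Sodh1, a sorbitol dehydrogenase that turns sorbitol to fructose, from 30.0, 15.6 and 31.9 to 117, 78.4 and 138 (LFC 2.09 ± 0.43, adjusted p = 0.0870). Cht9, CG43134 and Sodh1 were DEGs without 7-day replicate 2 and in no other fit without a library (adjusted p up to 0.499, 0.499 and 0.533).

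Most of the largest increases in size did not pass the adjusted threshold in limma. Among the 12 genes with the largest LFC that met the rule for named genes, 1 was a DEG, against 9 of the 12 with the largest decreases. Of the other 11, DESeq2 called CG5506 and Cht8 (adjusted p = 0.00475 and 0.0141) and edgeR called none. CG34324 read 199.7, 2165 and 204 at 3 days and 28498, 4227 and 15895 at 7 days (LFC 4.80 ± 1.19, adjusted p = 0.282). CG3906 read 86.5, 839.6 and 70.2 against 11943, 1344 and 7686 (LFC 4.84 ± 1.37, adjusted p = 0.539). The 2 libraries numbered 2 stood next to each other, the highest at 3 days and the lowest at 7 days.

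This order ran through the group. In 11 of the 12 genes replicate 2 was the highest 3-day library, and in 12 of 12 it was the lowest 7-day library. CG34220 read 501, 5753 and 587 at 3 days and 36177, 6227 and 25510.0 at 7 days, so that the ages were kept apart by 5753 against 6227 (LFC 3.91 ± 1.41, unadjusted p = 0.0126). Muc68D, a mucin, read 102, 656 and 39.0 against 5496, 741 and 4352 (LFC 4.23 ± 1.19, adjusted p = 0.539). CG14645 lies inside Skp2 on 3R, and the 2 had nearly the same values in every library, such as 24530.0 and 23845 in replicate 1 of the 7-day males, so their reads cannot be told apart.

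Other members of the 12 were lower in level. CG5506 read 38.3, 13.1 and 12.1 at 3 days and 928, 136 and 673 at 7 days (LFC 4.51 ± 1.02, adjusted p = 0.146), CG14125 13.3, 160.2 and 10.2 against 1728, 285 and 1192 (LFC 4.83 ± 1.15, adjusted p = 0.22), and CG10910 0, 23.8 and 4.47 against 260.5, 35.2 and 351 (LFC 4.86 ± 1.23, adjusted p = 0.299). CG7567 read 0, 22.2 and 0 against 411, 32.3 and 120 (LFC 5.38 ± 1.39, adjusted p = 0.333). In each of the 4, 7-day replicate 2 was far below the other 7-day libraries.

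Digestive enzymes as a list were spread wide. Of 48 tested, 2 were DEGs and 3 had an unadjusted p below 0.05, all higher at 7 days, against 0.0402% and 1.44% over all genes. The ages overlapped in 42 and were apart in 6, all higher, against 5.23% over all genes. The median LFC was 0.63, or 0.01 without replicate 3 of the 7-day males. The third was LManII, a lysosomal mannosidase (LFC 0.53 ± 0.25). The trypsin alphaTry read 26.6, 117 and 81.1 at 3 days and 423, 25.2 and 644 at 7 days (LFC 1.58 ± 1.42, unadjusted p = 0.279). The 5 gut markers, none at 0, summed to 135, 270.3 and 218 at 3 days and 1358, 140.2 and 1962 at 7 days, so replicate 2 stood with the 3-day libraries while the other 7-day libraries were above all of them. How much gut tissue the pools held was not tested.

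**Figure D4:**
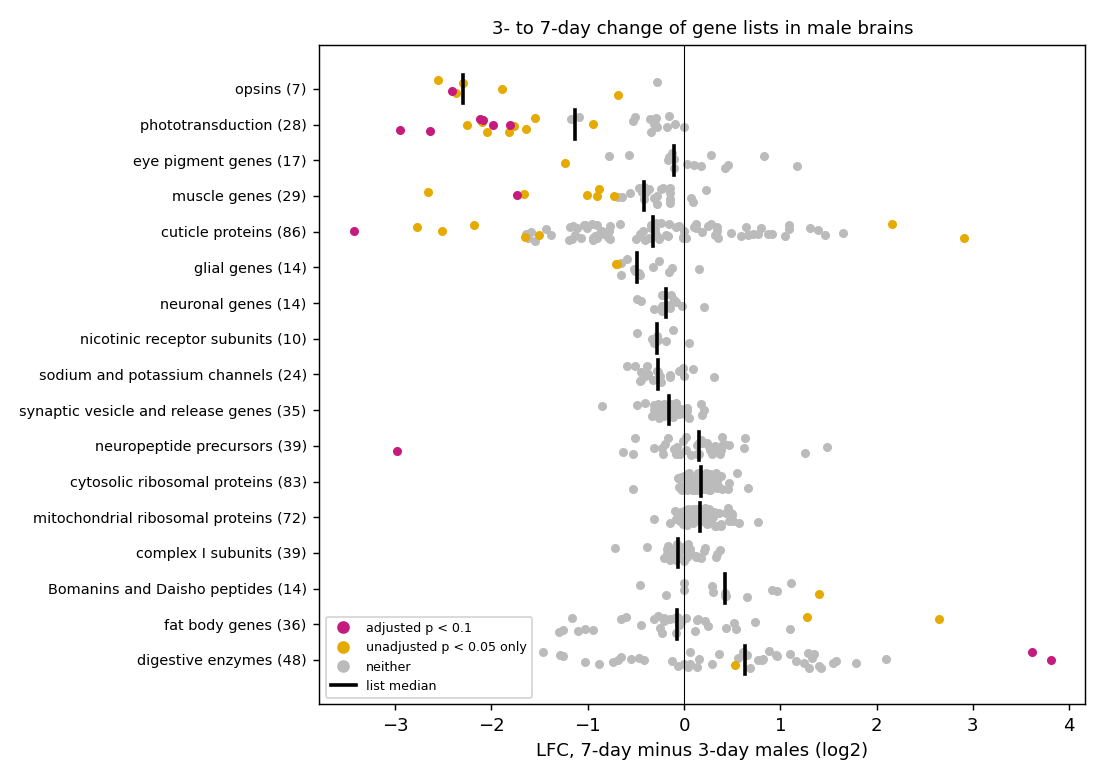
LFC from 3 to 7 days of the tested members of 17 gene lists, 1 point per gene with the number of tested members beside the name, coloured by the threshold passed, and the list median as a bar. Opsins and phototransduction genes have medians of −2.29 and −1.13, and the medians of the neuronal, synaptic, ribosomal and complex I lists lie between −0.18 and 0.18.

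Genes of neurons and synapses gave no DEG. Of 14 neuronal genes, 35 synaptic vesicle and release genes, 24 sodium and potassium channels, 10 nicotinic receptor subunits and 16 monoamine receptors, 0 passed either threshold in limma, and edgeR and DESeq2 also called 0 at an adjusted p below 0.1. Most LFCs were slightly below 0, with medians of −0.18, −0.16, −0.27, −0.28 and −0.19. In 6 of the 10 nicotinic receptor subunits and 9 of the 24 channels every 7-day library was below every 3-day library, against 6.16% over all genes, and under quantile normalization the median was −0.15 for the nicotinic subunits, −0.06 for the synaptic genes and −0.05 for the neuronal genes. para, the voltage-gated sodium channel of action potentials, read 30048, 25999 and 25111 at 3 days and 21083, 19166 and 19274 at 7 days (LFC −0.44 ± 0.64, unadjusted p = 0.494).

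Glial genes had a median LFC of −0.49. Of 14 tested, 0 were DEGs in limma, edgeR or DESeq2. At an unadjusted p below 0.05, 2 were lower, against 1.56% over all genes. They were the beta-alanyl amine synthase e (ebony), which joins beta-alanine to histamine in glia (LFC −0.70 ± 0.29), and the blood-brain barrier transporter Mdr65 (−0.71 ± 0.30). Gs2, a glutamine synthetase of glia, read 3749, 3131 and 3442 at 3 days and 2335, 2256 and 2984 at 7 days (LFC −0.45 ± 0.39, unadjusted p = 0.259). The 7 glial markers, none at 0, summed to 7980.8 to 8837 at 3 days and 5992 to 6465 at 7 days.

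Genes of protein synthesis leaned the other way by a small amount. Of 83 cytosolic ribosomal proteins, 74 had an LFC above 0, the ages did not overlap in 19 that were higher (against 5.23% over all genes) and 1 that was lower, and the median was 0.18. Of 72 mitochondrial ribosomal proteins, 61 had an LFC above 0 and the median was 0.16. None of the 2 lists' members passed either threshold in limma or an adjusted p below 0.1 in edgeR or DESeq2. In 71 of the 83 cytosolic genes replicate 1 was the highest 7-day library, and in 69 replicate 1 was the lowest 3-day library. The medians without 1 library ran from 0.09 to 0.24 and from 0.06 to 0.29.

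Chaperonin CCT subunits, heat shock proteins and proteasome subunits had medians of 0.36, 0.33 and 0.20, that of the heat shock proteins being 0.03 without replicate 1 of the 3-day males, and 0 of 8, 0 of 25 and 1 of 38 had an unadjusted p below 0.05. The 1 was Rpt6R, a scarce variant of a proteasome ATPase that was lower, with an LFC of −2.10 ± 0.96. Complex I subunits (39 tested), complexes II to V (46) and glycolytic enzymes (15) had medians of −0.06, −0.15 and −0.06 with 0 past either threshold in limma and 0 called by edgeR or DESeq2. The complex I subunit ND-49 overlapped between the ages (LFC 0.20 ± 0.28), and so did the ribosomal protein RpL5 (0.09 ± 0.28), whose sign turned with array weights and without replicate 1 of the 7-day males.

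Immune and fat body genes included single members higher at the unadjusted threshold. BomS5, a short peptide induced by infection, read 13.3, 29.6 and 24.3 at 3 days and 64.2, 45.3 and 66.5 at 7 days (LFC 1.40 ± 0.52, unadjusted p = 0.0151), and Mtk, the antifungal peptide metchnikowin, had an LFC of 1.59 ± 0.74 (unadjusted p = 0.0451). Each was 1 of its list, of 14 Bomanin and Daisho peptides and of 16 classical antimicrobial peptides tested, against 1.44% over all genes. The list medians were 0.43 and 0.27. Without replicate 1 of the 3-day males the first was 0.19, and without replicate 1 of the 7-day males the second was 0.67. Lsp2, a storage protein of the fat body, read 34.9, 10.7 and 26.8 at 3 days and 172, 152 and 108 at 7 days (LFC 2.65 ± 0.91, unadjusted p = 0.00936), and Obp99b was the only other of 36 fat body genes past that threshold (LFC 1.28 ± 0.52). The 8 fat body markers, none at 0, summed to 2290.5 to 2631 at 3 days and 2558 to 2804 at 7 days, which overlapped.

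Genes that are scarce in the brain varied from library to library. The median level of 147 gustatory receptor, cuticle and eggshell genes was 18.3, 9.86 and 8.94 at 3 days and 3.78, 10.1 and 16.4 at 7 days, so the 3-day library with the fewest reads and the third 7-day library were high and the first 7-day library low. Odorant receptors (52 tested) had 3 lower and 1 higher at an unadjusted p below 0.05, against 1.56% and 1.44% over all genes. Their median was −0.34, or 0.03 without 7-day replicate 1. Among 29 genes of ciliogenesis, 4 were lower at an unadjusted p below 0.05, against 1.56% over all genes. They were IFT57, nompB, unc and btv, with LFCs from −1.75 to −1.06, and 0 of the 29 were DEGs in limma, edgeR or DESeq2. The meiotic cohesion gene solo read 138, 50.1 and 32.6 at 3 days and 5.66, 12.9 and 39.6 at 7 days (LFC −1.99 ± 0.73, unadjusted p = 0.0141). In solo, IFT57 and btv the highest 7-day library was replicate 3 and the lowest replicate 1, the same order as in the scarce genes at that age. At 7 days nompB was highest in replicate 2, and unc was lowest in replicate 2. The part of the scarce genes' level in these differences was not tested.

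**Figure D5:**
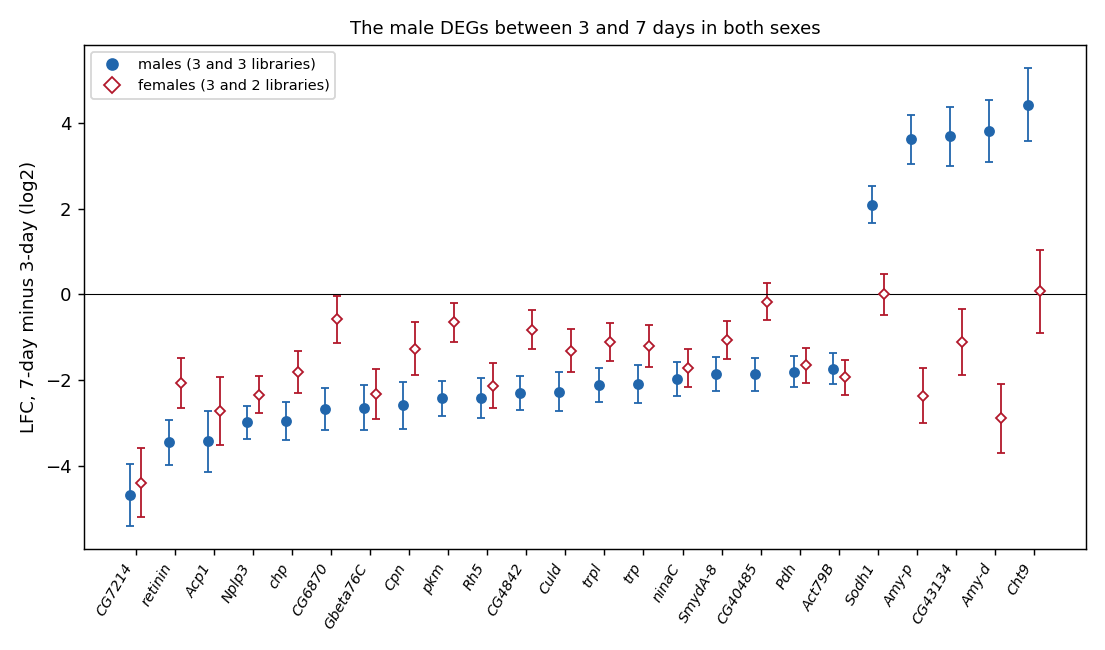
LFC from 3 to 7 days of the 24 male DEGs in males (filled circles) and in females (open diamonds), with SE as bars. All 19 DEGs that were lower in males have a female LFC below 0, and of the 5 that were higher Amy-p, Amy-d and CG43134 have female LFCs of −2.37, −2.89 and −1.11.

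The same ages were compared in females to ask whether the male changes were shared. Females had 92 DEGs that were lower (0.739%) and 863 that were higher (6.93%) at 7 days. Of the 19 male DEGs that were lower, 19 had a female LFC below 0, and 10 were DEGs in females too, Nplp3 (−2.33) and CG7214 (−4.39) among them. The median was −2.42 in males and −1.66 in females, and 18 of the 19 lay further from 0 in males. The 19 were picked by their male change, so a larger size in males follows from the choice alone and is not read as a difference. The difference between the male and the female change was below 0 for 59 genes (0.474%) and above 0 for 9 genes (0.0723%) at an adjusted p below 0.1, and 0 of these 19 genes were among them (lowest adjusted p 0.168, for CG40485). CG40485 read 77.8 to 94.7 in females of 3 days and 77.6 and 79.7 in those of 7 days, while in males the 3-day mean was 3.80 times the 7-day mean.

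Of the 5 genes that were higher in 7-day males, 3 had a female LFC below 0 and 2 had one above 0. The 5 were picked by their male rise, and that choice by itself favours a male change above the female one. Amy-p in females read 287, 296 and 233 at 3 days against 110.0 and 23.9 at 7 days (LFC −2.37), and the male change exceeded the female change by 5.98 ± 0.86 (adjusted p = 0.0223). For Amy-d the difference was 6.70 ± 1.09 (adjusted p = 0.0273) and for CG43134 it was 4.79 ± 1.03 (adjusted p = 0.0808). In Cht9 and Sodh1 the female LFC was 0.07 and 0.001, and the difference between the sexes did not pass the threshold (4.36 ± 1.29 and 2.09 ± 0.65, adjusted p = 0.134 and 0.141). The 3-day males were the lowest of the 4 groups of these ages in the mean of all 5 genes, which the choice of the genes also favours.

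The male values at 14 days are given side by side. Both comparisons share the 7-day males, and the genes below were picked by their 3- and 7-day values. A return towards the middle at 14 days is therefore expected from the choice alone, and these counts are no test. From 7 to 14 days 814 genes were lower (6.54%) and 1825 higher (14.7%) at an adjusted p below 0.1, against 24 DEGs from 3 to 7 days. The 14-day male libraries were unlike each other, with neuronal marker sums of 14211, 38203 and 42012 in replicates 1, 2 and 3. The median level of the 147 scarce genes was 61.8, 28.8 and 17.3 in them. The part of replicate 1 in the 7- to 14-day counts was not tested. Of the 19 genes lower at 7 days, 17 had a 14-day mean log2 value above that of 7 days. Of these, 3 were past the threshold, beside 14.7% of all genes. A 14-day mean below the 3-day mean was found in 19 of 19. pkm was one of the 3, with 245, 128 and 158 at 14 days. Nplp3 stayed at 132, 46.3 and 87.4, and retinin at a mean of 70.3 ± 41.7 (SD, n = 3).

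Of the 5 DEGs higher at 7 days, 4 had an LFC below 0 from 7 to 14 days, and Amy-p, Amy-d and CG43134 passed the threshold (−1.53, −1.88 and −2.28, adjusted p = 0.09, 0.0947 and 0.0761). These 5 were picked in the same way, and 6.54% of all genes were lower past that threshold. Amy-p read 121, 41.3 and 38.8 at 14 days, which is between its values at 3 and 7 days in 2 of the 3 libraries and within the 7-day range in the third. Sodh1 read 140.5, 170.2 and 55.5. Of the 7 opsins, 3 were higher at 14 than at 7 days past the threshold, beside 14.7% of all genes. They were Rh6 (1.53 ± 0.46), Rh5 (1.32 ± 0.47) and Rh7 (0.96 ± 0.30). At 14 days Rh6 read 768, 308 and 385, Rh5 173, 71.3 and 123, and Rh7 839, 717 and 362. Replicate 1 was the highest in each, and Rh5 in replicate 2 and Rh7 in replicate 3 lay within their 7-day ranges.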

How the data were processed

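RNA was isolated from pools of 100 brains per sample and libraries were made with a kit that does not mark strand (TruSeq RNA Library Prep Kit v2). Single-end reads were trimmed by the authors (Trimmomatic 0.39). They removed ribosomal reads, aligned with STAR 2.7.3a to FlyBase 6.32 and normalized with DESeq2 2.10 in R 2.14.1; the read counter and its treatment of reads with several matches are not given in the sources used here. The deposited values are a signal in normalized read counts per gene, which the authors made by dividing whole reads by 1 size factor per library, and 100% of the values came out whole within 1e-06 when this was undone. The table holds 13439 genes in 16 libraries, 2 female samples having been left out of it by the authors as outliers. Genes were named by RefSeq's table for release 6, 13435 by locus tag and 4 by synonym.

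log2(value + 1) was fitted with limma 3.58.1 (trend) in R 4.3.3, with all 6 groups in 1 model and a filter that asked for a mean value of 5 or more across all 16 libraries, so that 12448 genes were tested and 991 were not. The LFC is on this log2 scale and understates changes of low genes. p-values are two-sided and Benjamini-Hochberg adjusted, and the thresholds are an adjusted p below 0.1 and an unadjusted p below 0.05. edgeR 4.0.16 and DESeq2 1.42.0 were run on the recovered reads as alternatives, and a p or DEG with no tool named is limma's. The fit was tested on simulated data. The 3 libraries of a group are described as biological replicates, and their number and the reads per library limit the precision.

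Named are genes past the adjusted threshold (at most 15 in each direction by p, and the others of the 24 because the count is described), the 12 with the largest LFC in each direction among genes with a mean of at least 50, an unadjusted p below 0.05 and no overlap, and up to 4 members of each list by p, or the most abundant where none passed. Neighbours on a chromosome, members past these numbers and genes set beside them were added after their values were seen. The comparison, the lists and the markers were chosen with earlier results of these data known. Of 49 gene lists fixed for this work those with a result are described.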

Additional observations from a re-analysis of the deposited data

Results flagged for a closer look

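The change from 3 to 7 days differed between males and females, by limma's test of the difference at an adjusted p below 0.1, for 8 of the genes described. These 8 were described for their male change, and that choice by itself favours a difference between the sexes. With no filter on low values 3 of them, Amy-p, Amy-d and solo, kept the call, and the adjusted p of the others was 0.101 to 0.104. edgeR called 7, CG5506 being at 0.115, and DESeq2 called 8. Amy-p rose in males and was lower in females, with a male minus female change of 5.98 (adjusted p = 0.0223), and Amy-d gave 6.70 (adjusted p = 0.0273). For CG43134 the difference was 4.79 (adjusted p = 0.0808), for CG14125 it was 8.69 (male LFC 4.83, female LFC −3.87, adjusted p = 0.0808), for CG10910 9.13 (4.86 and −4.27, adjusted p = 0.0808) and for CG5506 6.53 (4.51 and −2.02, adjusted p = 0.0911).

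In the other direction, solo gave −6.80 (male LFC −1.99, female LFC 4.80, adjusted p = 0.0273) and btv −3.20 (−1.06 and 2.13, adjusted p = 0.0874). In solo the 3-day females read 1.12, 0 and 0.81 and the 7-day females 23.5 and 77.4. The scarce genes' median level was 1.12, 3.51 and 3.24 in the 3-day females and 9.02 and 23.1 in the 7-day females, and its part in these 2 differences was not tested. The gut markers summed to 9127, 18167 and 6607 in 3-day females and to 2003 and 95.7 in 7-day females, and the part of gut tissue in the first 6 differences was not tested.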

How the results depend on the processing

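The number of DEGs depended on the processing. All 24 kept their sign under all 18 alternatives, but the ages did not overlap in any of them, so leaving out 1 library could not turn a sign. Of the 24, 12 were also called by edgeR and 24 by DESeq2. Genes lower and higher at 7 days numbered 11 and 3 in edgeR, 35 and 12 in DESeq2 (491 genes had no adjusted p), 5 and 1 after quantile normalization, 10 and 4 after rescaling on abundant genes, 28 and 15 with only the 6 male libraries in the fit, 68 and 37 with array weights (whose estimate stopped before convergence), and 6 and 1 at an adjusted p below 0.05. Leaving out 1 library gave 1 to 20 lower and 0 to 7 higher. Without a 14-day male and a 7-day female library rich in scarce genes, a setting chosen after seeing the data, there were 24 and 9. The male minus female difference was below and above 0 for 129 and 16 genes in edgeR, 774 and 94 in DESeq2 and 8 and 3 with no filter. The cause of these differences was not tested. With a replicate block 13 genes were lower and 5 higher. The numbers shared by libraries did not pair them, the correlations of same-numbered libraries being −0.34, 0.06 and −0.20 against −0.25 to 0.41 for other pairs. Of 1597 gene values under alternatives 4 turned sign, alphaTry (−0.45) and RpL5 (−0.058) with array weights, RpL5 without 7-day replicate 1 (−0.0016, and up to 0.19 without other libraries) and Rh2 without 3-day replicate 2 (0.022, and down to −0.74 without other libraries). Of the 392 list medians under scaling and left-out settings, 15 moved by over 1 SD of the replicates and 48 turned sign. Both scalings moved the median of all genes by less than 0.1.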
